A study of Mus musculus with 12 samples.

Results

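The genes examined here are 10 mouse genes that the transcription factor p53 switches on or that hold cells out of division: Cdkn1a, Mdm2, Ccng1, Gdf15, Trp53inp1, Phlda3, Eda2r, Bax, Sesn2 and Btg2. They were chosen by name, with earlier results of these data known. Their symbols were matched to Ensembl gene identifiers, and all 10 were found among the 24187 genes of the count matrix. p53 is held low in resting cells by the ubiquitin ligase Mdm2 and accumulates after DNA damage or other stress. It then raises genes that stop the cell cycle, genes that can lead to cell death and genes that adjust metabolism, and it raises Mdm2, which closes a feedback loop. In the liver, p21, the product of Cdkn1a, is known to restrain the division of hepatocytes after injury, and several of these genes are also raised by stress pathways other than p53.

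Bulk RNA was sequenced from the livers of 12 mice in 3 groups. The control mice (n = 3) are labelled as controls, and the study calls this group healthy. Its text does not say whether these mice were fasted or given saline. The vehicle mice (n = 5) received paracetamol (APAP), whose reactive metabolite kills hepatocytes around the central vein, and then PBS. The hAAM mice (n = 4) received APAP and then human alternatively activated macrophages, which were grown from blood monocytes of donors with CSF1 and polarised with IL-4 and IL-13. The sample labels give an APAP dose of 350 mg/kg for both injured groups. The study shows these data with its severe model, for which it names a higher dose, so the dose of the injured groups is in doubt. Its methods name the mice as C57BL/6 J in one place and as male or female C57BL6/JOlaHsd in another, and do not state sex, dose or time of collection for the sequenced livers separately. The methods describe a fast before APAP and an injection of cells or vehicle hours later. The vehicle there is PBS with or without cryopreservation medium. No group received APAP without an injection of vehicle or cells, and no uninjured group is labelled as given either.

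Total counts per liver ranged from 47391650 to 74056505. Values are CPM, the counts of a gene scaled to a common library size, with TMM factors that correct for differences in library composition. The defining hepatocyte markers were abundant in each liver, with summed levels of 57120 to 99766 CPM. Before the groups were compared, each pair of APAP livers was set against counting noise. Vehicle replicate 3 and hAAM replicate 4 differed by a median of 1.19 times counting noise over 15804 genes, while the other 35 pairs differed by 2.37 to 4.97 times. These libraries carry different group labels, so both were kept, and the results are also given without them. In bulk RNA, fewer cells of a type and less RNA per cell cannot be told apart.

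p53 binds an element made of a pair of 10-base half-sites. It was searched for in RefSeq promoter windows (GRCm38.p6) that run from 250 bases before to 50 bases after each gene's start, on both strands since the element is palindromic. Up to 13 bases were allowed between the half-sites and up to 2 mismatches in the 20 bases. Of the 10 genes, 9 had a window. A match was found in 3 of these 9, Cdkn1a, Ccng1 and Bax, and in 4.71% of 27025 genes. With at most 1 mismatch it was found in 2 of the 9 (Cdkn1a and Ccng1) and 0.718% of genes, and with at most 3 in the same 3 and 17.4% of genes. The stretches of these 3 genes are shown as the windows that hold a match. All 3 genes with a match were higher than in control livers in vehicle livers. Cdkn1a and Ccng1 were also higher in hAAM livers, where Bax did not pass. Of the 6 genes with a window and no match, Phlda3, Eda2r and Sesn2 were higher in both injured groups, and Mdm2, Gdf15 and Btg2 passed in neither. The part of the element in these changes was not tested. Capitals mark the matched element and any bases between its half-sites, and each stretch is written 5′ to 3′ on the strand of its gene, upstream of the start.
Cdkn1a: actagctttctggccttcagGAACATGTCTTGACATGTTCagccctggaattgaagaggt
Ccng1: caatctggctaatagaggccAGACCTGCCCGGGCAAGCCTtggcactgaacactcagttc
Bax: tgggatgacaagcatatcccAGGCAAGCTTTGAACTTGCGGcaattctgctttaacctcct
The Cdkn1a stretch is chr17:29090908-29090967 on the plus strand, and its element, with 1 mismatch and no spacer, ends 32 bases before the upstream start of the gene. A second match with 0 mismatches and a 12-base spacer overlaps it. The Ccng1 stretch is chr11:40755442-40755501 on the minus strand, with 1 mismatch, and its element ends 176 bases before the start. The Bax stretch is chr7:45467059-45467119 on the minus strand, with 2 mismatches and a spacer of 1 base, and its element ends 181 bases before the start. A match describes letters only, and a gene without one may hold an element outside the window. For comparison, the letters TGATGNAAN, which the stress factors ATF4 and CHOP can bind, were searched for on both strands and were found in 0 of the 9 genes and 4.5% of all genes.

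After APAP and vehicle, 6 of the 10 genes were higher than in control livers and 0 were lower. The largest rises were in Eda2r and Phlda3, at 7.78-fold and 7.16-fold, followed by Cdkn1a at 2.50-fold, Sesn2 at 1.75-fold, Bax at 1.55-fold and Ccng1 at 1.33-fold. Mdm2 and Trp53inp1 did not pass the test, and neither did Gdf15 or Btg2, which varied widely between livers. After APAP and hAAM, 6 of the 10 were again higher than in control livers: Trp53inp1 passed in place of Bax, and the other 5 were the same. Between hAAM and vehicle livers, 0 of the 10 passed the test.

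These calls come from edgeR's quasi-likelihood test in 1 fit of all 12 livers, over 22581 genes, at a Benjamini-Hochberg FDR under 0.05. Among all genes tested, 15.0% were higher in vehicle livers than in control livers and 14.8% were lower. In hAAM livers 10.7% were higher than in control livers and 9.96% lower. In 6 of the 10 genes every vehicle liver lay above every control liver, which held for 17.5% of all genes. In 5 of the 10 every hAAM liver lay above every control liver, against 14.3% of all genes. The median log2 fold change of the 10 genes was 0.53 in vehicle and 0.79 in hAAM livers, beside 0.01 and 0.02 over all genes tested. Since the 10 genes were chosen with earlier results of these data known, these values only describe them. Both comparisons use the same 3 control livers.

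**Figure D1:**
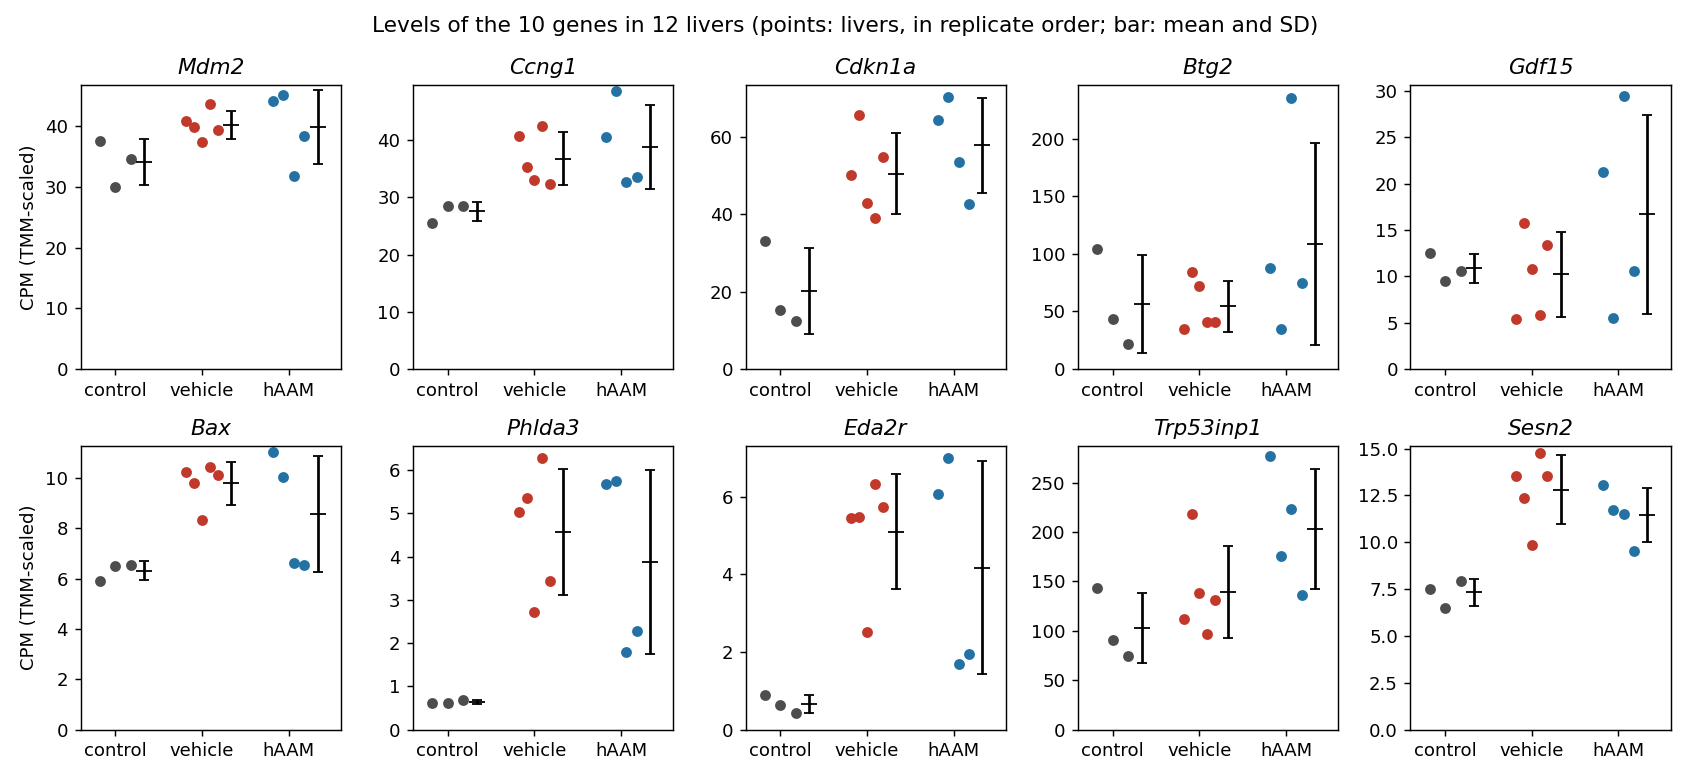
Level of each of the 10 genes in every liver (vertical axis, TMM-scaled CPM from 0; points are livers, the bar is the mean and SD) in control (n = 3), vehicle (n = 5) and hAAM (n = 4) mice. Phlda3 and Eda2r show the widest gap between control and injured livers, and Btg2 and Gdf15 overlap between all groups.

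Among the regulators that feed back on p53, Mdm2 (ENSMUSG00000020184, chromosome 10 from 117688875 to 117710758, GRCm38) encodes the ligase that marks p53 for degradation. It was at 37.6, 30.0 and 34.7 CPM in control livers, at 40.9, 39.8, 37.5, 43.7 and 39.4 CPM in vehicle livers, and at 44.2, 45.1, 31.8 and 38.3 CPM in hAAM livers. The highest control liver lay just above the lowest vehicle liver, and hAAM replicate 3 lay within the control range. On the log2 scale the difference from control was 0.24 (SE 0.11, edgeR FDR 0.128) in vehicle and 0.23 (SE 0.12, edgeR FDR 0.194) in hAAM livers. Without hAAM replicate 3, Mdm2 passed in hAAM livers, at a log2 fold change of 0.32 (edgeR FDR 0.0345).

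Ccng1 (ENSMUSG00000020326, chromosome 11 from 40748552 to 40755311) encodes cyclin G1, which brings a phosphatase to Mdm2. It was at 25.6, 28.6 and 28.4 CPM in control livers, at 40.7, 35.2, 33.0, 42.5 and 32.4 CPM in vehicle livers, and at 40.6, 48.5, 32.7 and 33.5 CPM in hAAM livers. Every injured liver lay above every control liver, with a narrow gap. Relative to control, its log2 fold change was 0.42 (SE 0.14, edgeR FDR 0.0366) in vehicle and 0.50 (SE 0.14, edgeR FDR 0.0288) in hAAM livers. The call was lost in 6 of the 12 fits that each left out 1 liver for vehicle (without any one of the 3 control livers or vehicle replicates 1, 2 or 4) and in 5 of 12 for hAAM (without any one control liver or hAAM replicates 1 or 2). Its largest FDR in these fits was 0.121 for vehicle and 0.0925 for hAAM, in both without control replicate 1, where the log2 fold changes were 0.37 and 0.45. Both calls were also lost with the replicate number as a block (edgeR FDR 0.0682 and 0.0664), and the hAAM call when only hAAM and control livers were fitted (edgeR FDR 0.0568).

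Among the genes of arrest, Cdkn1a (ENSMUSG00000023067, chromosome 17 from 29090976 to 29100727) encodes p21, which binds and blocks the cyclin-dependent kinases and PCNA. It was at 33.0, 15.3 and 12.5 CPM in control livers, at 50.1, 65.8, 42.9, 39.0 and 55.0 CPM in vehicle livers, and at 64.5, 70.4, 53.6 and 42.8 CPM in hAAM livers. Control replicate 1 stood above the other two control livers but below every injured liver. Compared with control livers, the log2 fold change was 1.32 (SE 0.30, edgeR FDR 0.00696) in vehicle and 1.52 (SE 0.31, edgeR FDR 0.00702) in hAAM livers. Both calls held in all 12 fits that left out 1 liver, with log2 fold changes of 1.07 to 1.87 in vehicle and 1.26 to 2.06 in hAAM livers. Cdkn1a shares 273 exon bases, 7.7% of its exons, with AC167363.2 on the opposite strand, which had 17 to 68 counts against 631 to 3804 for Cdkn1a.

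Btg2 (ENSMUSG00000020423, chromosome 1 from 134075170 to 134079120) encodes an antiproliferative partner of the deadenylase complex and is also an immediate-early gene. It was at 104, 43.0 and 22.0 CPM in control livers, at 34.5, 84.0, 72.3, 40.7 and 40.6 CPM in vehicle livers, and at 87.7, 34.8, 236 and 75.0 CPM in hAAM livers. The groups overlapped throughout, and hAAM replicate 3 was the highest of the 12. Its log2 fold change against control was −0.05 (SE 0.58, edgeR FDR 0.955) in vehicle and 0.94 (SE 0.62, edgeR FDR 0.308) in hAAM livers. The hAAM value was 0.22 without hAAM replicate 3 and 1.74 without control replicate 1 (edgeR FDR 0.108).

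Gdf15 (ENSMUSG00000038508, chromosome 8 from 70629393 to 70632456) encodes a secreted stress cytokine that acts on the brainstem. It was at 12.5, 9.45 and 10.6 CPM in control livers, at 5.39, 15.8, 10.8, 5.82 and 13.3 CPM in vehicle livers, and at 21.3, 5.52, 29.5 and 10.6 CPM in hAAM livers. The injured livers lay on both sides of the control range, and hAAM replicate 3 was again the highest. On the log2 scale the difference from control was −0.09 (SE 0.47, edgeR FDR 0.909) in vehicle and 0.62 (SE 0.50, edgeR FDR 0.407) in hAAM livers, and without hAAM replicate 3 the latter was 0.20.

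Among the genes of cell death and death signalling, Phlda3 (ENSMUSG00000041801, chromosome 1 from 135766119 to 135769136) encodes a protein that competes with the kinase AKT for membrane lipid and so lowers survival signalling. It was at 0.610, 0.613 and 0.692 CPM in control livers, at 5.04, 5.36, 2.73, 6.28 and 3.45 CPM in vehicle livers, and at 5.68, 5.76, 1.80 and 2.28 CPM in hAAM livers. The control livers lay close together, on 32 to 39 counts, and every injured liver lay well above them. Relative to control, its log2 fold change was 2.84 (SE 0.45, edgeR FDR 0.00115) in vehicle and 2.60 (SE 0.46, edgeR FDR 0.00353) in hAAM livers.

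Eda2r (ENSMUSG00000034457, chromosome X from 97333840 to 97377216) encodes a receptor of the TNF receptor superfamily that binds ectodysplasin A2. It was at 0.896, 0.629 and 0.435 CPM in control livers, at 5.44, 5.47, 2.52, 6.31 and 5.74 CPM in vehicle livers, and at 6.05, 6.98, 1.68 and 1.94 CPM in hAAM livers. All injured livers exceeded all control livers, which had 22 to 47 counts. Compared with control livers, the log2 fold change was 2.96 (SE 0.54, edgeR FDR 0.0024) in vehicle and 2.67 (SE 0.55, edgeR FDR 0.00702) in hAAM livers. The hAAM livers fell into a high pair, replicates 1 and 2, and a low pair, replicates 3 and 4, in both Eda2r and Phlda3.

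Bax (ENSMUSG00000003873, chromosome 7 from 45461697 to 45466898) encodes the pore-forming protein of the outer mitochondrial membrane in apoptosis. It was at 5.89, 6.51 and 6.56 CPM in control livers, at 10.3, 9.80, 8.32, 10.4 and 10.1 CPM in vehicle livers, and at 11.0, 10.0, 6.64 and 6.53 CPM in hAAM livers. All vehicle livers exceeded the control livers, whereas hAAM replicates 3 and 4 lay at or next to the control range and replicates 1 and 2 within or above the vehicle range. Its log2 fold change against control was 0.63 (SE 0.17, edgeR FDR 0.0162) in vehicle and 0.44 (SE 0.18, edgeR FDR 0.0988) in hAAM livers. In vehicle livers the call was lost without control replicate 1 (log2 fold change 0.58, edgeR FDR 0.0596). In hAAM livers it was gained without hAAM replicate 3 (0.54, edgeR FDR 0.0384) or hAAM replicate 4 (0.55, edgeR FDR 0.04). That Bax passed in one group and not in the other does not show a difference between them, and the direct comparison gave −0.19 (SE 0.15, edgeR FDR 0.973). Bax shares 192 exon bases with Gm45808 on the same strand.

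Trp53inp1 (ENSMUSG00000028211, chromosome 4 from 11156431 to 11174379) encodes a nuclear protein that promotes p53 activity and autophagy. It was at 143, 90.8 and 75.0 CPM in control livers, at 112, 218, 139, 97.1 and 131 CPM in vehicle livers, and at 277, 175, 223 and 136 CPM in hAAM livers. Control replicate 1 lay above hAAM replicate 4 and above 4 of the 5 vehicle livers. On the log2 scale the difference from control was 0.44 (SE 0.30, edgeR FDR 0.289) in vehicle and 0.98 (SE 0.31, edgeR FDR 0.0446) in hAAM livers. The vehicle value was 0.22 without vehicle replicate 2, 0.25 without control replicate 3 and 0.75 without control replicate 1 (edgeR FDR 0.117). The hAAM call was lost in 8 of the 12 fits that left out 1 liver, all but those without control replicate 1, vehicle replicates 2 or 4, or hAAM replicate 4. In these 12 fits the hAAM log2 fold change ranged from 0.79 to 1.29 and the largest FDR was 0.159, without control replicate 3. The call was also lost when only hAAM and control livers were fitted (edgeR FDR 0.062).

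Among the genes of metabolism, Sesn2 (ENSMUSG00000028893, chromosome 4 from 132492032 to 132510501) encodes sestrin 2, a leucine-binding inhibitor of mTORC1. It was at 7.53, 6.51 and 7.94 CPM in control livers, at 13.5, 12.4, 9.85, 14.7 and 13.5 CPM in vehicle livers, and at 13, 11.7, 11.5 and 9.52 CPM in hAAM livers. All injured livers exceeded all control livers. Relative to control, its log2 fold change was 0.81 (SE 0.14, edgeR FDR 0.00177) in vehicle and 0.64 (SE 0.14, edgeR FDR 0.0103) in hAAM livers.

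**Figure D2:**
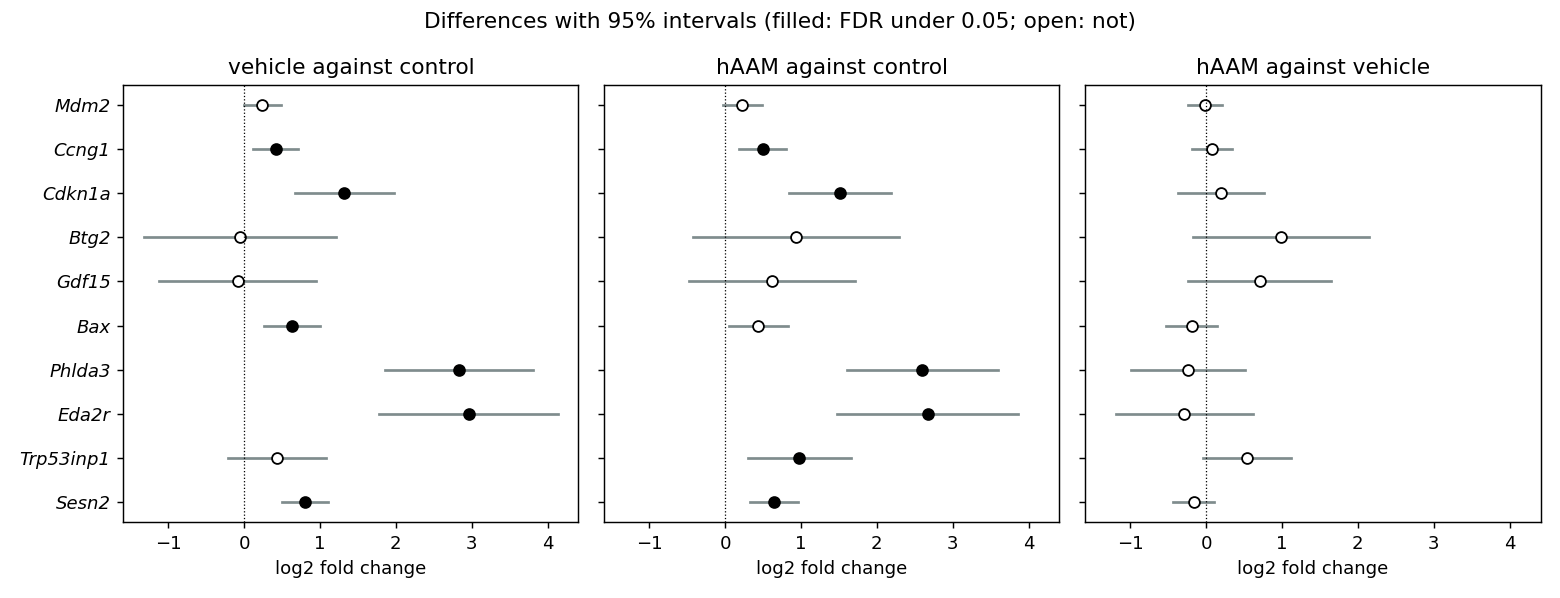
log2 fold change of each of the 10 genes (horizontal axis; point: estimate, line: 95% interval) for vehicle against control, hAAM against control and hAAM against vehicle. Filled points passed an FDR of 0.05; 6, 6 and 0 points are filled, and in the last panel each of the 10 intervals includes 0.

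Between hAAM and vehicle livers, each of the 10 genes overlapped, and the groups did not overlap in 1.40% of all genes. edgeR called 0 of the 10 and 0% of the 22581 genes. At an unadjusted p under 0.05 edgeR passed 1133 genes, of which 0 were among the 10, and DESeq2 called 1 gene at its own FDR, with 0 among the 10. The largest differences were in Btg2 at 0.99 (95% interval −0.17 to 2.15), Gdf15 at 0.71 (−0.23 to 1.65) and Trp53inp1 at 0.54 (−0.04 to 1.12), on the log2 scale. Cdkn1a differed by 0.19 (−0.37 to 0.76), Ccng1 by 0.08 (−0.19 to 0.35) and Mdm2 by −0.01 (−0.24 to 0.21). Sesn2 differed by −0.16 (−0.43 to 0.11), Phlda3 by −0.24 (−0.99 to 0.52) and Eda2r by −0.29 (−1.20 to 0.61). Several of these values rest on single livers. Without hAAM replicate 3, Btg2 was at 0.28, Gdf15 at 0.29, Phlda3 at −0.0018 and Eda2r at −0.03. Without hAAM replicate 2, Phlda3 was at −0.49 and Eda2r at −0.66, and without hAAM replicate 4 they were at −0.05 and −0.05. Trp53inp1 was at 0.36 without hAAM replicate 1, where it ranked below Eda2r and Phlda3 in size. Over the 12 fits that left out 1 liver, Cdkn1a ranged from 0.09 to 0.32, Bax from −0.34 to −0.08 and Sesn2 from −0.24 to −0.08, and 0 of the 10 genes were called. The intervals of Mdm2, Ccng1 and Sesn2 were the narrowest, and those of Btg2, Gdf15, Eda2r and Trp53inp1 leave room for differences of more than 1 on the log2 scale.

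Without vehicle replicate 3 and hAAM replicate 4, the near-identical libraries, the same comparisons called 6 of the 10 genes in vehicle livers, 7 of the 10 in hAAM livers and 0 of the 10 between them. The gene gained was Bax in hAAM livers, at a log2 fold change of 0.55 (edgeR FDR 0.037), and no call was lost.

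**Figure D3:**
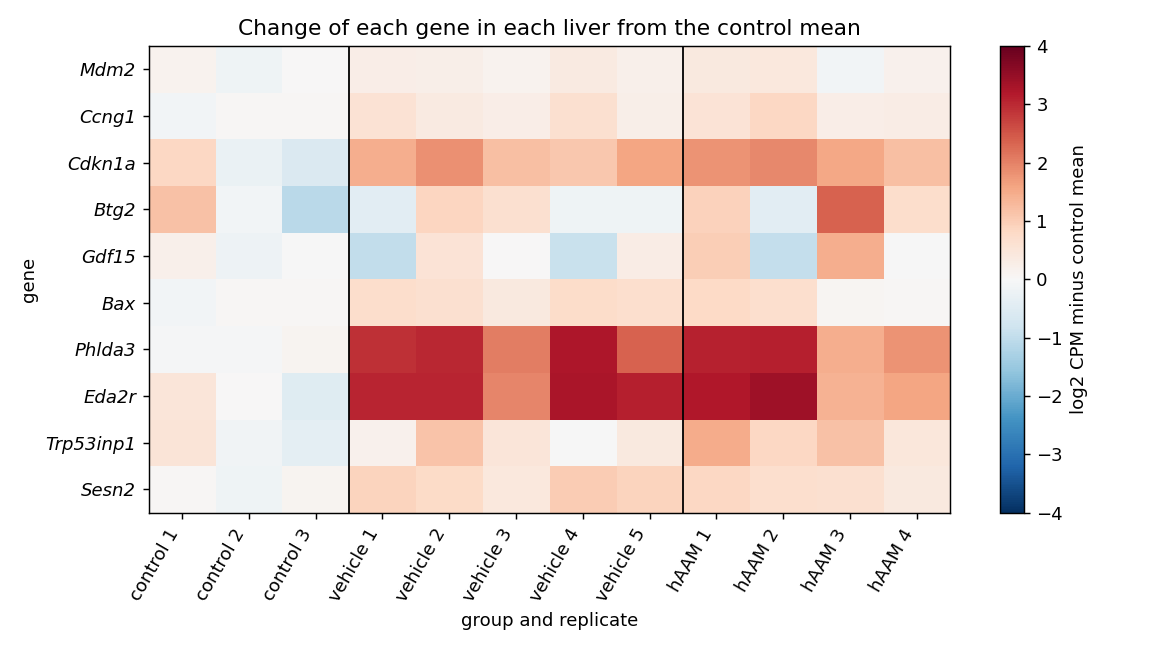
Change of each of the 10 genes in each of the 12 livers, as log2 CPM (prior count of 2) minus the control mean (colour scale, red above and blue below the control mean; columns are livers, rows are genes). Phlda3 and Eda2r are red in all 9 injured livers and palest in vehicle replicate 3 and hAAM replicates 3 and 4, while Btg2 and Gdf15 change sign between livers of 1 group.

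The injured livers also differed among themselves. Vehicle replicate 3 had the lowest Phlda3, Eda2r, Bax, Sesn2 and Mdm2 of the vehicle livers, and hAAM replicates 3 and 4 had the lowest levels of these 5 genes among the hAAM livers. Vehicle replicate 3 was not lowest in Cdkn1a, Ccng1, Gdf15, Trp53inp1 or Btg2. Among the injured livers, hAAM replicate 3 was highest in Gdf15 and Btg2 and next to highest in Trp53inp1. In Trp53, vehicle replicate 3 (20.1 CPM) and hAAM replicates 3 and 4 (15.7 and 19.9 CPM) were the lowest livers of their groups. Markers of monocyte-derived macrophages (Ccr2, Ly6c2, Itgam, Spp1 and Gpnmb) moved with them in part. Of these 5 markers, Ccr2, Itgam and Gpnmb were higher than control in both injured groups, and none was at 0 in any liver. Their summed level was 23.2 to 37.1 CPM in control livers. It was 133, 82.1, 60.7, 302 and 112 CPM in vehicle replicates 1 to 5 and 254, 247, 116 and 60.4 CPM in hAAM replicates 1 to 4. Spp1, which did not pass in either group and is also made by cells other than macrophages, was a large share of this sum, at 18.1 to 34.1 CPM in control, 31.4 to 253 CPM in vehicle and 31.2 to 195 CPM in hAAM livers. Vehicle replicate 3 and hAAM replicate 4 were lowest in the sum too, but hAAM replicate 3 lay close to vehicle replicate 5, whose Eda2r was 5.74 CPM against 1.68 CPM. All 4 erythroid markers were also higher in vehicle livers (190 to 2000 CPM summed, against 51.9 to 152 CPM in control livers) and 0 of 4 passed in hAAM livers (195 to 692 CPM). Of 4 endothelial markers, 2 were higher in vehicle and 1 in hAAM livers, and none was at 0. Clec4g did not pass, but every injured liver lay below every control liver. It was at 15.2 to 29.6 CPM in vehicle and 14.3 to 27.7 CPM in hAAM livers. Stab2 was a large share of the endothelial sum, at 115 to 141 CPM in control livers. The endothelial sum was 212 CPM in vehicle replicate 3 against 240 to 282 CPM in the other vehicle livers. It was 191 and 206 CPM in hAAM replicates 3 and 4 against 241 and 261 CPM in replicates 1 and 2. The sum of the 6 hepatocyte markers, of which 0 passed, was highest in the same 3 livers, at 95000, 99800 and 95700 CPM against 65200 to 87600 CPM in the other injured livers. Alb was a large share of this sum, at 35700 to 61800 CPM in control livers. Serpina1a was lower in every injured liver, at 6430 to 9650 CPM in vehicle and 8630 to 9680 CPM in hAAM livers, against 9890 to 10700 CPM in control livers. Neutrophil markers, of which 0 of 4 passed and none was at 0, summed to 3.72 CPM in vehicle replicate 3 and to 3.49 and 4.31 CPM in hAAM replicates 3 and 4, against 5.8 to 23.7 CPM in the other injured livers and 2.71 to 14.7 CPM in control livers. Of 3 T cell markers 0 passed, and their sum was highest in the same 3 livers, at 0.871, 1.10 and 0.877 CPM against 0.241 to 0.68 CPM in the other injured livers. It was 0.515 to 0.834 CPM in control livers, and each T cell marker fell to 4 counts in some liver. Of 3 cholangiocyte markers 0 passed, and their sum was lowest in these livers, at 2.48, 2.30 and 2.78 CPM against 2.96 to 6.46 CPM. In control livers the cholangiocyte sum was 2.28 to 3.42 CPM. The 4 Kupffer cell and 4 B cell markers did not pass in either group, and their sums did not separate these livers. Of 4 stellate cell markers, 1 was higher in both injured groups, Des, and their sum was 222 to 299 CPM in control, 222 to 254 CPM in vehicle and 246 to 270 CPM in hAAM livers. The part of these cells in the results was not tested.

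**Figure D4:**
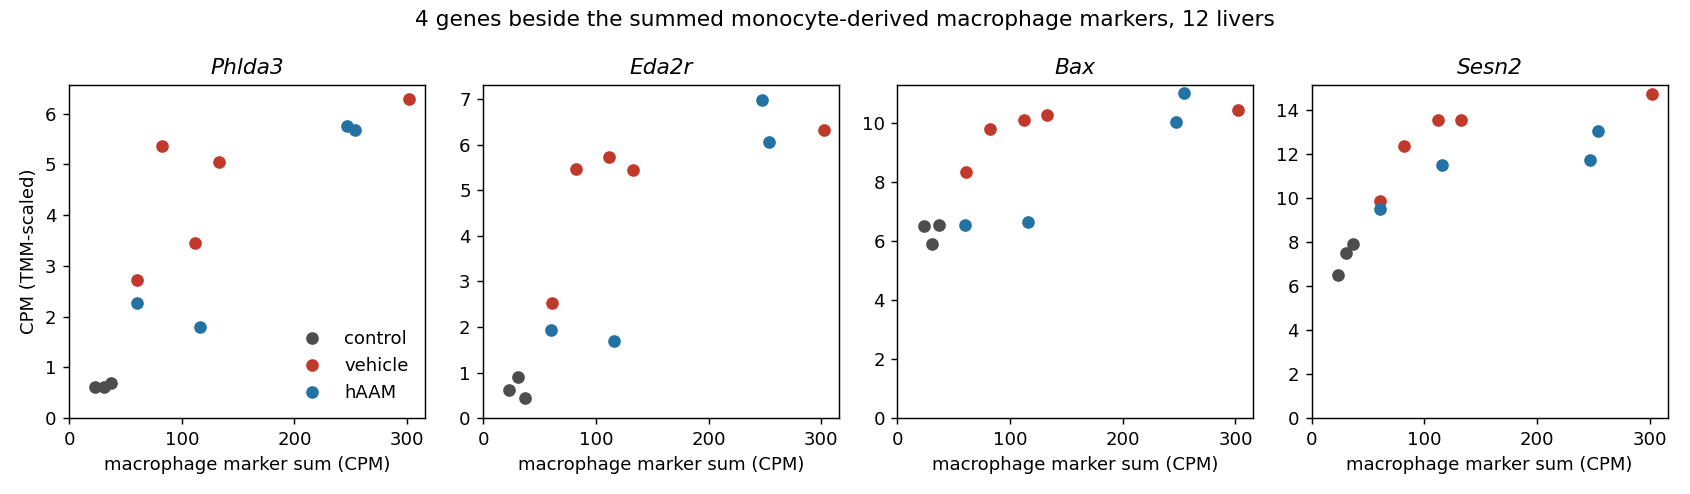
Level of Phlda3, Eda2r, Bax and Sesn2 (vertical axes, CPM) against the summed level of 5 monocyte-derived macrophage markers (horizontal axis, CPM; Spp1 is a large share of the sum) in the 12 livers. The 3 control livers sit at the lower left, vehicle replicate 3 and hAAM replicate 4 have the lowest marker sums of the injured livers (60.7 and 60.4 CPM), and hAAM replicate 3 lies below the vehicle livers in Phlda3, Eda2r and Bax at a marker sum of 116 CPM.

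Levels of different genes were compared per length, as CPM per kilobase of merged exons. In control livers, Btg2 (20.6 ± 15.6, SD, n = 3) and Trp53inp1 (15.9 ± 5.50) were highest and did not differ beyond their spread. Ccng1 (7.84 ± 0.477), Mdm2 (6.71 ± 0.754), Gdf15 (5.87 ± 0.842) and Cdkn1a (5.70 ± 3.13) followed, then Bax (4.01 ± 0.237) and Sesn2 (2.11 ± 0.212), and the spread of Cdkn1a covered the means of Ccng1, Mdm2, Gdf15 and Bax. At the bottom, Phlda3 (0.409 ± 0.0296) and Eda2r (0.111 ± 0.0393) were lowest. The middle of this order depends on the length used: per kilobase of the longest transcript, Mdm2 (10.8) and Cdkn1a (9.73) lay above Ccng1 (7.84) and Gdf15 (7.03), while Phlda3 and Eda2r were again lowest. The genes with the largest fold changes were thus those with the lowest levels, and after APAP and vehicle they were still lowest, at 2.93 ± 0.931 for Phlda3 and 0.865 ± 0.252 for Eda2r (SD, n = 5). Cdkn1a reached 14.2 ± 2.97 in the same livers.

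Over the 9 APAP livers, the genes whose log2 CPM was most like that of Cdkn1a were Gm11824 (Pearson r = 0.94), Rpsa-ps5 (0.89), Dnajc1 (0.88), Pafah1b1 (0.88) and Gm44705 (0.87), of 11171 genes ranked. Rpsa-ps5 is a pseudogene, and its reads may come from its parent gene. Of the others among the 10 genes, Trp53inp1 was the most like Cdkn1a (r = 0.74, rank 35), while Phlda3 and Eda2r were below the level required. The 9 livers include both treatments and the near-identical pair. Without that pair r was 0.95 for Gm11824 and 0.75 for Trp53inp1. It moved from 0.17 to −0.72 for Sesn2, from 0.37 to 0.05 for Bax and from 0.31 to 0.08 for Ccng1. For Gdf15 it was 0.27 and 0.30, for Mdm2 0.24 and 0.12, and for Btg2 0.06 and 0.16. The highest of 11171 values over 9 livers are a description, and no test was run.

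Trp53 itself, which encodes p53, was at 28.6, 21.7 and 19.4 CPM in control livers, at 22.8, 22.3, 20.1, 25.5 and 23.5 CPM in vehicle livers, and at 28.4, 26.3, 15.7 and 19.9 CPM in hAAM livers. The groups overlapped, and the difference from control was −0.02 in vehicle (SE 0.18, edgeR FDR 0.933) and −0.04 in hAAM livers (SE 0.19, edgeR FDR 0.9), on the log2 scale. p53 is controlled mainly through the stability of the protein, which RNA does not measure. Of 14 tested genes that encode p53 or its regulators, 3 were higher and 4 lower in vehicle livers, and 3 higher and 2 lower in hAAM livers, with medians of −0.02 and −0.04. Chek2, the DNA damage checkpoint kinase, rose by 0.82 on the log2 scale in vehicle and 0.88 in hAAM livers, and Atr, a sensor kinase of stalled replication, by 0.32 and 0.28. Sirt1, a deacetylase of p53, fell by 0.54 and 0.41, and Rchy1, another ubiquitin ligase of p53, by 0.37 and 0.37. Mdm4, the partner of Mdm2, fell by 0.25 in vehicle livers (edgeR FDR 0.0167) and was at −0.10 in hAAM livers (edgeR FDR 0.359). Scaled by library size alone, Mdm4 was at 0.09 and 0.20 and Trp53 at 0.33 and 0.28, and the median of all genes was at 0.36 and 0.32. The sizes of the falls of Rchy1 and Sirt1 thus also depend on the scaling.

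Related lists were counted in the same way, beside the 15.0% higher and 14.8% lower among all genes in vehicle livers and the 10.7% and 9.96% in hAAM livers. Over all 85 list genes tested, 18 were higher and 12 lower in vehicle livers, and 18 higher and 5 lower in hAAM livers. Of 11 tested p53 targets of cell death, 4 were higher and 2 lower in vehicle livers, and 4 higher and 1 lower in hAAM livers, with medians of 0.36 and 0.25. Tnfrsf10b, the mouse TRAIL receptor, rose by 2.46 and 2.40 on the log2 scale, Apaf1, the scaffold of the apoptosome, by 0.95 and 0.85, and the RNA-binding protein gene Zmat3 by 0.84 and 0.58. The death receptor gene Fas fell by 1.42 and 1.27, from 22.5 to 29.1 CPM in control livers to 7.97 to 11.5 CPM in vehicle and 9.27 to 10.9 CPM in hAAM livers. Of 14 targets of DNA repair, arrest and metabolism, 3 were higher and 2 lower in vehicle livers, and 3 higher and 0 lower in hAAM livers, with medians of 0.00 and 0.02. Ak1, an adenylate kinase, rose by 2.20 and 2.28. Ddit4, an inhibitor of mTORC1, rose by 0.58 and 1.12. Gadd45a, a growth arrest and DNA damage gene, fell by 1.57 in vehicle livers and was at −1.43 in hAAM livers (edgeR FDR 0.0528), and the groups overlapped. Without control replicate 1 the vehicle call was lost, and Gadd45a was at −0.69 (edgeR FDR 0.216). In vehicle livers Pltp, a phospholipid transfer protein gene, fell by 0.61, and in hAAM livers it was at −0.52 (edgeR FDR 0.119).

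Of 12 tested paralogues of the 10 genes, 1 was higher and 1 lower in vehicle livers, and 0 passed in hAAM livers, with medians of 0.04 and 0.04. Bak1, the relative of Bax, rose by 0.75 in vehicle livers, and Phlda1, the relative of Phlda3, fell by 1.45. In hAAM livers Phlda1 was at −1.20 (edgeR FDR 0.0602), and without control replicate 1 it was at −0.66 in vehicle livers (edgeR FDR 0.15). Of 10 other brakes of the cell cycle, 1 was higher in vehicle livers, the kinase inhibitor gene Cdkn2b at 1.30, and 3 were higher in hAAM livers, where Cdkn2b was at 1.35. The medians of these brakes were 0.29 and 0.34. Of 13 cyclins and kinases that p21 binds, with PCNA, 3 were higher in vehicle and 2 in hAAM livers, and 0 were lower. Cdk6 rose by 0.97 and 0.73 and Pcna, the sliding clamp of DNA replication, by 0.77 and 0.86, while Ccne1 rose by 1.10 in vehicle livers and was at 0.85 in hAAM livers (edgeR FDR 0.095). All 13 had a positive log2 fold change in both groups, and their medians of 0.60 and 0.77 were close to the 0.53 and 0.79 of the 10 genes. Of 11 genes of the ATF4 and CHOP stress response, which can also raise Sesn2 and Gdf15, 3 were higher and 3 lower in vehicle livers, and 3 higher and 2 lower in hAAM livers, with medians of −0.19 and −0.30. The serine synthesis enzyme gene Psat1 rose by 3.24 and 2.78, Atf3 by 1.40 and 2.21 and Trib3 by 1.30 and 0.93, while the lipoprotein receptor gene Vldlr fell by 1.23 and 0.98. The remaining genes in these counts, named after their values were seen, were higher for Atm and Polk in both groups, Perp in vehicle livers, and Pmaip1, Rbl1 and Tob1 in hAAM livers, and lower for Atf4 in both groups and Cop1, Bbc3 and Ddit3 in vehicle livers. Between hAAM and vehicle livers edgeR called 0 of the 85 tested genes of these lists. Of the called list genes given with a log2 fold change, the vehicle calls of Sirt1, Rchy1, Tnfrsf10b, Apaf1, Zmat3, Fas, Ak1, Cdk6, Psat1, Trib3 and Vldlr and the hAAM calls of Tnfrsf10b, Fas, Ddit4, Cdk6, Atf3 and Psat1 held in each of the 12 fits that left out 1 liver, and the other calls of these genes were lost in at least 1. Atf3 was at 2.02 in vehicle and 2.83 in hAAM livers without control replicate 1, and at 1.58 in hAAM livers without hAAM replicate 3. Leaving out 1 liver moved the number called in hAAM livers from 23 to as few as 12, without control replicate 1, 13 without control replicate 3 and 14 without hAAM replicate 1.

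**Figure D5:**
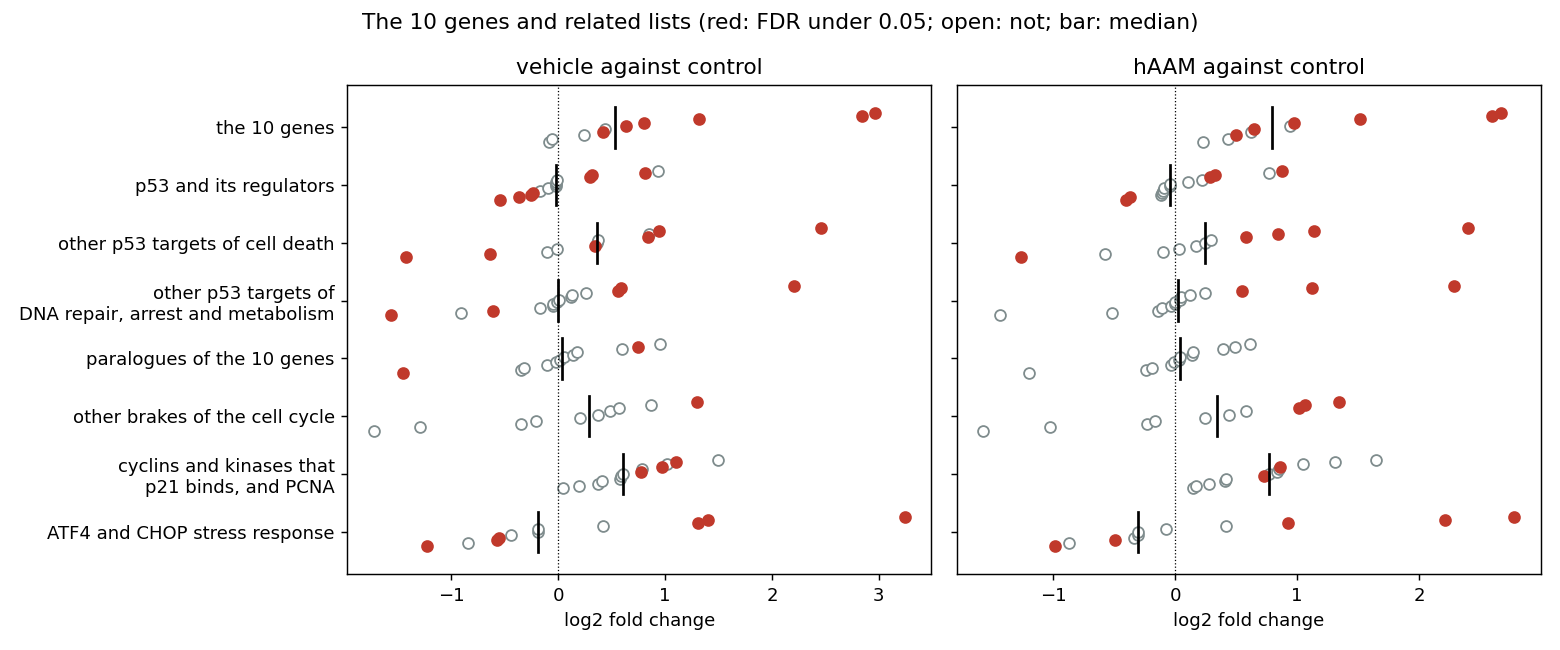
log2 fold change against control (horizontal axis) of each tested gene in the 10 genes and in 7 related lists, for vehicle and for hAAM livers (red: FDR under 0.05, open: not, bar: median of the list). The medians of the 10 genes are 0.53 and 0.79, with 8 of 10 points above 0 in vehicle and 10 of 10 in hAAM livers, and the list of cyclins, kinases and PCNA has medians of 0.60 and 0.77, with all 13 points above 0 in both panels.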

How the data were processed

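Bulk RNA sequencing of 12 mouse livers (3 control, 5 vehicle, 4 hAAM) was analysed, with groups and replicate numbers taken from the sample labels. The matrix deposited by the authors holds raw counts per Ensembl gene, without normalization. Per the methods and processing notes, libraries were directional and depleted of ribosomal RNA, reads were trimmed with cutadapt 4.6, aligned to GRCm38 with STAR 2.7.1a and counted with summarizeOverlaps. The strand setting of the counting is not given in the sources used here, so overlapping genes may exchange reads. Symbols and coordinates came from GENCODE M21 (GRCm38), which gave a symbol to 24128 of 24187 genes.

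Low counts were removed with filterByExpr by group, leaving 22581 genes, and edgeR 4.0.16 (R 4.3.3) fitted 1 quasi-likelihood model to all livers with TMM scaling and a two-sided Benjamini-Hochberg FDR threshold of 0.05. Total counts per liver were 47391650 to 74056505, and the common biological coefficient of variation between livers was 0.214. Each standard error was the absolute log2 fold change over the square root of the F statistic of its gene. The test was checked on simulated data. DESeq2 1.42.0, other scalings, filters, sample choices, an FDR of 0.01, a replicate block and leaving out livers were alternatives. The 10 genes and all lists were chosen with earlier results of these data known, so they are described by counts and medians. Named list genes are Trp53, Mdm4 and, per list, the 4 largest called changes in vehicle livers. Genes ranked by likeness to Cdkn1a had an average log2 CPM of 2 or more.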

Additional observations from a re-analysis of the deposited data

Results flagged for a closer look

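Outlying livers were looked for with Dixon's gap ratio in the vehicle and hAAM groups, for the 10 genes and Trp53 (22 checks). Chance marks about 1 group in 20. The only liver marked was vehicle replicate 3 in Eda2r, at 2.52 CPM where the other vehicle livers lay between 5.44 and 6.31 CPM (gap over range 0.769). It is one of the near-identical libraries. Without it the log2 fold change of Eda2r in vehicle livers was 3.13.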

How the results depend on the processing

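The calls of Cdkn1a, Phlda3 and Eda2r against control held under each of the 21 alternatives, and those of Sesn2 under all but an FDR of 0.01 in hAAM livers (0.0103). Over fits that left out 1 liver, 4 to 6 of the 10 genes were called in vehicle livers, 4 to 7 in hAAM livers and 0 between treatments, and 22 to 42, 12 to 33 and 0 of the 85 list genes. At an FDR of 0.01, 3 of the 10 genes were called in hAAM livers, and 12 and 6 list genes in vehicle and hAAM livers. Scaling by library size alone moved the median of all genes to 0.36 and 0.32. It called 8 of the 10 genes in each group (gaining Mdm2 in both, Trp53inp1 in vehicle and Bax in hAAM livers) and 51 and 43 list genes, and gave Gdf15 0.25 and Btg2 0.27 in vehicle livers, Trp53 0.33 and 0.28, and Mdm4 0.089 and 0.20. Fitting only the livers compared called 4 of the 10 genes in hAAM livers, losing Ccng1 and Trp53inp1, and 14 list genes. Equal replicate numbers share only a number: deviations of same-numbered livers correlated between −0.46 and 0.39. With a replicate block, 5 of the 10 genes were called in each group, losing Ccng1 in both, and 18 and 15 list genes, and Btg2 was at 0.19 in vehicle livers. Without the near-identical libraries, Trp53 was at 0.025 in vehicle and 0.016 in hAAM livers. Leaving out 1 liver gave, in vehicle livers, Gdf15 −0.30 to 0.075, Btg2 −0.44 to 0.75 and Trp53 −0.14 to 0.15, in hAAM livers Trp53 −0.17 to 0.14, and between treatments Mdm2 −0.078 to 0.079, Ccng1 −0.045 to 0.15 and Trp53 −0.14 to 0.12. None of these reversed values passed the test, and the cause of the changes was not tested. Among the 10 genes, control counts were lowest for Phlda3 and Eda2r (22 to 47), and among the list genes named Cdkn2b (10 to 24) and Ak1 (17 to 31) had fewer.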
